A study of Arabidopsis thaliana with 8 samples.

Results

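The BZR1 family of Arabidopsis thaliana is a group of 6 transcription factor genes: BZR1, BES1 and the BES1/BZR1 homologues BEH1, BEH2, BEH3 and BEH4. They were taken by gene code (AT1G75080, AT1G19350, AT3G50750, AT4G36780, AT4G18890 and AT1G78700), not by any measured value, and are 6 of the 33518 genes counted in each library. All 6 had reads in every library and all 6 passed the filter on low counts.

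RNA-seq was done on whole seedlings of 4 genotypes in the Col-0 ecotype, 2 libraries each, all harvested after 5 days of darkness on MS medium with BRZ (brassinazole), which blocks brassinosteroid synthesis. The line pifq;bzr1-1D joins the bzr1-1D allele with the quadruple mutation, bzr1-1D carries that allele alone, pifq lacks PIF1, PIF3, PIF4 and PIF5, and Col-0 is the wild type. The wild type was on BRZ too, so every level below is one with the seedling's own hormone production inhibited. The series addresses how BZR1 and PIF4 act together. Nothing in the labels tells whether both libraries of a genotype were grown as separate cultures. The p-values therefore rest on library-to-library spread that may be only technical.

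Brassinosteroid is perceived at the cell surface by BRI1 and its co-receptor BAK1, and the signal inactivates BIN2, a kinase of the GSK3 type. BIN2 phosphorylates BZR1 and BES1 and so keeps them out of action; once dephosphorylated they enter the nucleus, repress hormone synthesis genes and induce growth genes. BEH1 to BEH4 share the DNA-binding domain of BZR1 and BES1 and act in part redundantly with them. The dominant bzr1-1D allele exchanges a proline for a leucine in a PEST-like stretch of the BZR1 protein, which favours its dephosphorylated form. PIF4 is a helix-loop-helix factor that binds BZR1 and promotes elongation in darkness. A count per gene does not show which allele was read, so a BZR1 transcript level does not check the bzr1-1D genotype.

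Library totals ran from 16.1 to 34.4 M gene counts (M, mega). Levels are CPM, counts per M gene counts after TMM scaling, a correction for differences in library composition with factors of 0.942 to 1.04 here. In every genotype replicate libraries differed by more than sampling noise (chi-square per degree of freedom 5.5 in pifq;bzr1-1D, 2.17 in bzr1-1D, 1.72 in pifq and 2.47 in Col-0), so all were counted as separate. PORA, the protochlorophyllide reductase typical of etiolated tissue, averaged 1057 CPM in pifq;bzr1-1D, 2908 CPM in bzr1-1D, 1756 CPM in pifq and 3194 CPM in Col-0. Among the mutated genes, PIF1 averaged 21.9 CPM in pifq against 45.8 CPM in Col-0, PIF3 112 against 202 CPM and PIF5 11.4 against 34.4 CPM. PIF4 averaged 25.5 CPM in pifq against 14.2 CPM in Col-0, and a sum over the whole gene cannot tell a mutant transcript from an intact one. Chloroplast-encoded genes took 0.934% to 1.5% of counts in the lines without the PIFs and 0.460% to 0.646% in the others.

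BEH2 was the most abundant family transcript in all 8 libraries, and its level fell in every mutant line. Per kb of exon (lengths from the TAIR10.1 gene models, a later annotation than the one counted on) it made up 43.0% of the family total in pifq;bzr1-1D, 57.3% in bzr1-1D, 57.3% in pifq and 63.4% in Col-0. BES1 was second in most genotypes, with 28.6% in pifq;bzr1-1D, 22.4% in pifq and 16.04% in Col-0. In bzr1-1D the order of the next pair was the other way round, with BZR1 at 15.5% and BES1 at 13.1%. The other members followed in the same order in every library. BEH4 held 5.32% to 10.04%, BEH1 1.70% to 4.25% and BEH3 0.676% to 1.53%. Coding length was the planned measure for comparing members, so the shares per kb of exon depart from the plan. With the longest coding length, BZR1 came to 13.9% and BES1 to 31.4% in pifq;bzr1-1D. BES1 (14.6%) and BZR1 (14.5%) were then level in the mean of bzr1-1D, so their order there depends on the length used.

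**Figure D1:**
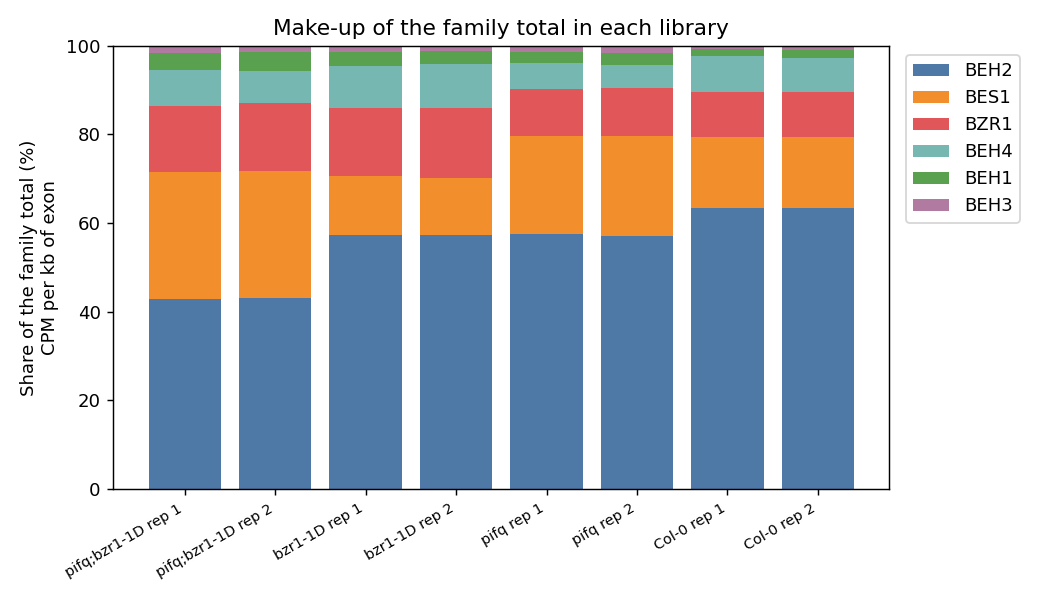
Stacked bars show, for each of the 8 libraries, the share in percent of each member in the family total of CPM per kb of exon. BEH2 takes 43.0% in pifq;bzr1-1D against 63.4% in Col-0, and the BES1 band is widest in pifq;bzr1-1D, at 28.6%.

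The family total, the sum of the 6 levels per kb of exon, was 165 and 166 CPM per kb in pifq;bzr1-1D, 139 and 141 CPM per kb in bzr1-1D, 163 and 163 CPM per kb in pifq, and 193 and 198 CPM per kb in Col-0. All 6 mutant libraries lay under both Col-0 libraries. The lower total was not shared by all members. In pifq;bzr1-1D against Col-0, 4 members were called higher and 2 lower, against 29.3% and 25% of genes tested. BEH2, the largest part of the total, averaged 71.3 CPM per kb there against 124 CPM per kb in Col-0. Seedlings were sampled whole, so fewer cells of a type that uses a gene and less RNA per cell cannot be told apart here.

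BZR1 itself, the factor that the bzr1-1D allele stabilises, had its highest transcript level in the combined line and its lowest in pifq. It had 47.6 and 49.0 CPM in pifq;bzr1-1D, 40.9 and 42.8 CPM in bzr1-1D, 33.2 and 33.8 CPM in pifq, and 37.4 and 39.5 CPM in Col-0. The libraries of the 4 genotypes did not overlap, and the means spanned 1.44-fold from pifq up to pifq;bzr1-1D. Against pifq, BZR1 rose in pifq;bzr1-1D by a log2 fold change of 0.52 ± 0.05 (SE, n = 2 libraries each, adjusted p = 4.07e-10 by edgeR). Against Col-0, it fell by 0.19 ± 0.05 on the log2 scale in pifq (adjusted p = 0.00219). Its difference between bzr1-1D and Col-0, 0.13 ± 0.05, passed by a small margin (adjusted p = 0.0348) and was lost in 13 of 16 alternatives (log2 fold change 0.08 to 0.16 and adjusted p 0.0267 to 0.333 over all 16). Without Col-0 replicate 1 it was 0.08. Between pifq;bzr1-1D and bzr1-1D the difference was 0.21 ± 0.05 (adjusted p = 0.00084), and it was lost with library totals alone (0.09, adjusted p = 0.12). The median of all tested genes shifts by -0.11 in that comparison under library totals. A change of scaling moves all genes alike, so the distance of BZR1 from that median, 0.19, stays the same by construction. That distance therefore cannot decide whether the difference holds.

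BES1, the closest relative of BZR1 and likewise a substrate of BIN2, had the widest range of the family. It had 115 and 116 CPM in pifq;bzr1-1D, 45.1 and 44.4 CPM in bzr1-1D, 88.4 and 89.0 CPM in pifq, and 76.4 and 76.7 CPM in Col-0. No 2 genotypes overlapped, and every step in that order of levels (pifq;bzr1-1D, pifq, Col-0, bzr1-1D) passed the test. With the PIFs present, bzr1-1D lowered it to a fold of 0.585 of Col-0 (log2 fold change −0.77 ± 0.04, adjusted p = 1.09e-16). Without them the direction turned: BES1 was 1.30-fold higher in pifq;bzr1-1D than in pifq (0.38 ± 0.04, adjusted p = 4.44e-10). The combined line, pifq;bzr1-1D, exceeded bzr1-1D 2.58-fold (1.37 ± 0.04, adjusted p = 4.94e-24), the largest difference of any member in the 6 pairwise comparisons, while pifq exceeded Col-0 only 1.16-fold (0.21 ± 0.04, adjusted p = 2.15e-05).

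BES1 shares part of its span with the neighbouring gene AT1G19360 in the TAIR10.1 models, and whether reads were counted by strand is not given in the sources used here. AT1G19360 had 42.2 and 42.1 CPM in bzr1-1D against 42.7 and 42.7 CPM in Col-0, a log2 difference of −0.02 ± 0.05 (adjusted p = 0.796). In pifq;bzr1-1D against pifq its difference was −0.02 ± 0.06 (adjusted p = 0.817). In the other comparisons it was lower where the PIFs were missing, with log2 differences of −0.28 ± 0.05 in pifq against Col-0 (adjusted p = 2.9e-05), −0.28 ± 0.06 in pifq;bzr1-1D against bzr1-1D (adjusted p = 5.5e-05) and −0.30 ± 0.06 in pifq;bzr1-1D against Col-0 (adjusted p = 2.6e-05), while BES1 was higher in each of these. The part of shared reads in the BES1 values was not tested. BZR1 overlaps AT1G75090, which had only 13 to 34 counts per library, and BEH4 overlaps AT1G78710, listed at 0 counts throughout.

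BEH2 had 118 and 119 CPM in pifq;bzr1-1D, 132 and 134 CPM in bzr1-1D, 155 and 154 CPM in pifq, and 203 and 209 CPM in Col-0. This was the only member at its highest in Col-0 and its lowest in the combined line, and all neighbouring levels in that order differed by the test. Both alleles lowered it alone, bzr1-1D by 0.63 ± 0.04 on the log2 scale (adjusted p = 1.28e-16) and pifq by 0.41 ± 0.04 (adjusted p = 3.32e-12). Together they took it to a fold of 0.575 of Col-0 (−0.80 ± 0.04, adjusted p = 4.39e-19), which is a smaller fall than the sum of the single ones.

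BEH4 was the member with the largest fall in pifq against Col-0, though not in the bzr1-1D background, where BEH2 was the only member called lower. It had 21.5 and 19.7 CPM in pifq;bzr1-1D, 21.7 and 23.0 CPM in bzr1-1D, 15.4 and 14.1 CPM in pifq, and 25.3 and 24.7 CPM in Col-0. The pifq libraries lay under all others, and pifq stood at a fold of 0.59 of Col-0 (−0.76 ± 0.07, adjusted p = 2.65e-11). In pifq;bzr1-1D the level was 1.41-fold that of pifq (0.49 ± 0.08, adjusted p = 1.67e-06). The difference of pifq;bzr1-1D from bzr1-1D, −0.10 ± 0.07, did not pass (adjusted p = 0.2), except with library totals alone (−0.22, adjusted p = 0.0079). Relative to the median of all genes, which that setting shifts along with BEH4, it stood at −0.12, by construction the same under either scaling. That of bzr1-1D from Col-0, −0.16 ± 0.07, passed (adjusted p = 0.0313) but was lost with DESeq2 (adjusted p = 0.186), without Col-0 replicate 1 (0.173) and without bzr1-1D replicate 1 (0.222).

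BEH1 and BEH3 were the scarce members, with 120 to 284 and 70 to 144 counts per library. BEH1 had 10.2 and 11.05 CPM in pifq;bzr1-1D, 6.83 and 6.37 CPM in bzr1-1D, 6.50 and 7.03 CPM in pifq, and 5.13 and 5.64 CPM in Col-0. The combined line was above all others, at 1.98-fold the level of Col-0 (0.98 ± 0.11, adjusted p = 2.84e-09) and 1.56-fold that of pifq (0.64 ± 0.11, adjusted p = 5.83e-06). The single lines did not differ from each other by the test (bzr1-1D against pifq −0.03 ± 0.11, adjusted p = 0.803). Each was above Col-0, bzr1-1D by 0.31 ± 0.12 (adjusted p = 0.0239) and pifq by 0.34 ± 0.12 (adjusted p = 0.0113). The call for bzr1-1D held in 11 of 16 alternatives (adjusted p 0.0243 to 0.597) and that for pifq in 12 of 16 (0.00872 to 0.155); leaving out Col-0 replicate 1 ended each of them (adjusted p = 0.227 in bzr1-1D and 0.15 in pifq).

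BEH3 was higher where the PIFs were missing. It had 5.18 and 4.58 CPM in pifq;bzr1-1D, 3.74 and 3.31 CPM in bzr1-1D, 4.32 and 4.99 CPM in pifq, and 2.68 and 3.38 CPM in Col-0. All libraries without the PIFs exceeded all libraries with them, whereas within each pair the bzr1-1D allele left the values overlapping. In pifq it was 1.57-fold higher than in Col-0 (0.65 ± 0.16, adjusted p = 0.000464), and in pifq;bzr1-1D 1.40-fold higher than in bzr1-1D (0.49 ± 0.16, adjusted p = 0.00688). The second of these was lost with DESeq2 (adjusted p = 0.112), without bzr1-1D replicate 2 (0.067) and without pifq;bzr1-1D replicate 1 (0.137). For the effect of bzr1-1D the fit gave 0.09 ± 0.15 without the PIFs (adjusted p = 0.624) and 0.26 ± 0.16 with them (adjusted p = 0.185). The second value was 0.06 without Col-0 replicate 1 (adjusted p = 0.837) and 0.40 without Col-0 replicate 2 (adjusted p = 0.0783). With 70 counts in the smallest library, pifq;bzr1-1D replicate 2, the exact binomial 95% interval ran from 3.57 to 5.78 CPM. Such intervals come from the count and total of 1 library, so they cover counting error only and leave out spread between libraries. Because the reads carry no molecular identifiers, even counting error may be understated.

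**Figure D2:**
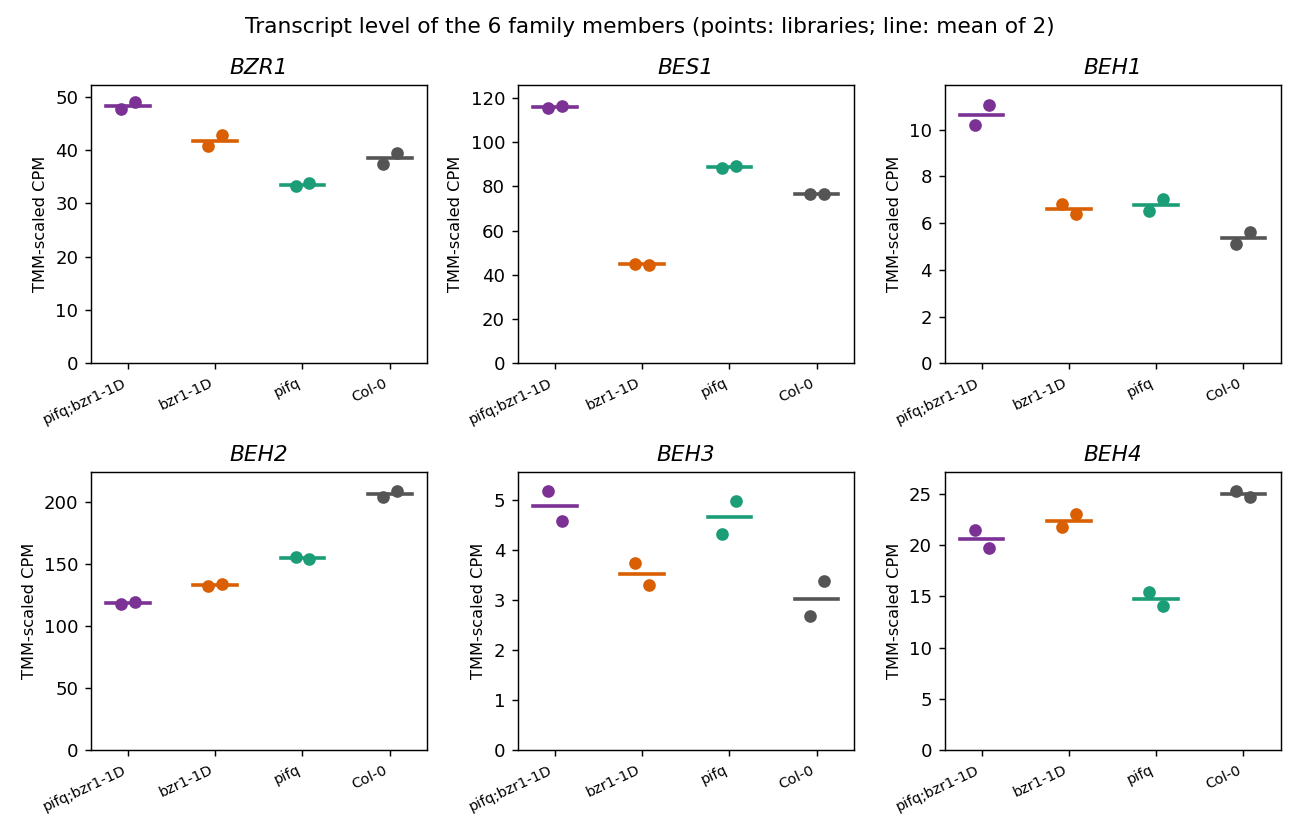
Each panel gives the TMM-scaled CPM of 1 member, with a point per library and a line at the mean of the 2 libraries, for pifq;bzr1-1D, bzr1-1D, pifq and Col-0. BES1 separates all genotypes (115 and 116 CPM in pifq;bzr1-1D against 45.1 and 44.4 CPM in bzr1-1D), and BEH2 is highest in Col-0.

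Across many genes a call was common, so counts of members say little by themselves. In bzr1-1D against Col-0, 5 of the 6 members were called, with BZR1 and BEH1 higher and BES1, BEH2 and BEH4 lower, against 56.8% of 21221 genes tested (30.8% higher, 26.1% lower). In pifq against Col-0, all 6 members were called (3 higher, 3 lower), against 62.5% of genes (32% and 30.5%). For the allele without the PIFs, 5 of 6 were called (4 higher, 1 lower), against 55.9% of genes (28.1% and 27.8%). In pifq;bzr1-1D against bzr1-1D, 5 of 6 were called (4 higher, 1 lower), against 65.4% (33.8% and 31.6%), and in pifq;bzr1-1D against Col-0 all 6 were (4 higher, 2 lower), against 54.3% (29.3% and 25%). In bzr1-1D against pifq, 5 of 6 were called (2 higher, 3 lower), against 74.1% (36.9% and 37.3%). The family's median log2 fold change was 0.44 in pifq;bzr1-1D against pifq and −0.02 in bzr1-1D against Col-0, where the medians of all genes tested were −0.01 and 0.02. Shares of genes that separate all 4 genotypes, or both lines without the PIFs from both with them, were not taken. Between pairs of genotypes, non-overlap of the libraries compared was common too. It was found in 76.5% of genes tested for bzr1-1D against Col-0, 80.3% for pifq against Col-0, 76.7% for pifq;bzr1-1D against pifq, 80.9% for pifq;bzr1-1D against bzr1-1D, 75.3% for pifq;bzr1-1D against Col-0 and 86.4% for bzr1-1D against pifq.

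For 4 of the 6 members the difference made by bzr1-1D depended on the PIFs. The interaction (the allele's log2 fold change in the pifq background less its log2 fold change in the wild type) was positive for BES1 (1.16 ± 0.06, adjusted p = 2.11e-17), BEH4 (0.66 ± 0.10, adjusted p = 1.78e-06), BZR1 (0.40 ± 0.07, adjusted p = 3.74e-05) and BEH2 (0.24 ± 0.05, adjusted p = 0.000211). None of the 4 interactions changed sign or side of the threshold in 15 alternatives. Over all genes tested 48.8% had a called interaction, 21.9% positive and 26.9% negative. BEH1 (0.33 ± 0.16, adjusted p = 0.0882) and BEH3 (−0.17 ± 0.22, adjusted p = 0.561) did not pass; with counts thinned to the smallest library BEH1 did (0.54, adjusted p = 0.0234).

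The form of the interaction differed between members. BES1 and BEH4 were called lower in bzr1-1D against Col-0 and higher in pifq;bzr1-1D against pifq, comparisons that share no library; 5.89% of genes tested showed that pair of calls and 10.2% showed opposite calls in either order. For BEH4 the lower call was lost in the 3 alternatives named above. BZR1 was higher in both, and more so without the PIFs. BEH2 was lower in both, and less so without the PIFs. BEH1 was higher in both, so 3 members were called in the same direction, as were 25.7% of genes. Of these, BEH2 alone was called in both with upper-quartile factors, thinned counts, DESeq2 or without Col-0 replicate 1, since BZR1 and BEH1 then lost the call in bzr1-1D against Col-0. Read from the other side, loss of the PIFs lowered BZR1 in the wild type (−0.19 ± 0.05) and raised it in bzr1-1D (0.21 ± 0.05, lost with library totals alone), opposite calls that 7.91% of genes also had, whereas BES1 rose in each background and BEH2 fell in each.

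**Figure D3:**
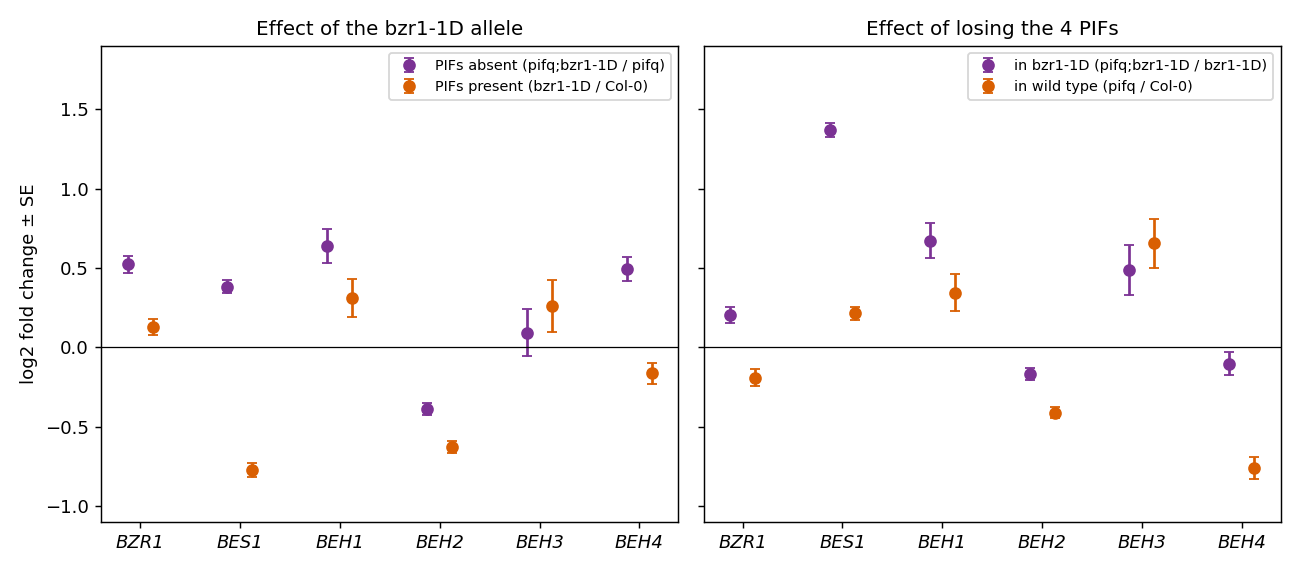
Log2 fold changes with SE from the edgeR fit (n = 2 libraries per genotype) are drawn for the bzr1-1D allele (left) without and with the PIFs, and for loss of the 4 PIFs (right) in bzr1-1D and in the wild type. BES1 lies at 0.38 without and −0.77 with the PIFs, on opposite sides of 0, and BEH2 lies under 0 in all 4 comparisons.

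Ratios between members within a library do not depend on how libraries are scaled. BES1 was 1.91 and 1.87 times as abundant as BZR1 per kb of exon in pifq;bzr1-1D, 0.871 and 0.82 times in bzr1-1D, 2.10 and 2.08 times in pifq, and 1.61 and 1.53 times in Col-0. They do depend on the length used. Per kb of coding length, BES1 had 41.9 and 41.4 CPM and BZR1 40.4 and 42.3 CPM in bzr1-1D. BEH2 was 1.502 and 1.502 times as abundant as BES1 in pifq;bzr1-1D, 4.31 and 4.43 times in bzr1-1D, 2.58 and 2.54 times in pifq, and 3.91 and 4.00 times in Col-0. These ratios of BES1 to BZR1 and BEH2 separated the genotypes in every library, with bzr1-1D at one end and the lines without the PIFs at the other. Ratios of BES1 to BEH1, BEH3 and BEH4 were not taken.

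Genes that lie beside the members in the TAIR10.1 gene order were counted as well. Of the 10 tested genes on either side of BES1, on chromosome 1, 7 were higher and 3 lower in bzr1-1D than in Col-0, and 4 of these 20 differed 2-fold or more, against 11.4% of all genes. Over all genes tested, 30.8% were higher and 26.1% lower in that comparison. Around BZR1, also on chromosome 1, 4 were higher and 4 lower and 1 differed 2-fold. Around BEH4, the third member on chromosome 1, with 312 tested genes between it and BZR1, 9 were higher, 4 lower and 3 differed 2-fold. BEH1, on chromosome 3, had 8 of its 20 neighbours 2-fold or more apart in pifq;bzr1-1D against Col-0, where 11.4% of all genes were, and the median absolute log2 difference of these neighbours was 0.75 against 0.27 over all genes. In that comparison the medians around the others were 0.44 for BZR1, 0.29 for BES1, 0.26 for BEH2, 0.40 for BEH3 and 0.19 for BEH4. The part of the neighbourhood in the BEH1 rise was not tested.

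A few transcripts followed the members closely. Likeness was taken as the root mean square difference between log2 CPM profiles centred on their own means over the 8 libraries, among other tested genes averaging at least 10 CPM (12100 or 12101 genes). AT1G76700 was closest to BZR1 (0.03 on the log2 scale), with means of 44.3 CPM in pifq;bzr1-1D, 38.6 CPM in bzr1-1D, 29.6 CPM in pifq and 35.4 CPM in Col-0. ET2 (AT5G56780, 0.07) and RBL6 (AT1G12750, 0.08) were closest to BES1; ET2 averaged 37.8 CPM in pifq;bzr1-1D, 14.9 CPM in bzr1-1D, 28.5 CPM in pifq and 26.7 CPM in Col-0. RGP2 (AT5G15650, 0.05) was closest to BEH2, with 92.8, 107, 131 and 168 CPM in pifq;bzr1-1D, bzr1-1D, pifq and Col-0. NS2 (AT3G07420, 0.08), NRP1 (AT2G03440, 0.10) and AT3G57800 (0.05) were closest to BEH1, BEH3 and BEH4, and the second nearest were AT3G04930 to BZR1, AT5G39530 to BEH1, AT3G63210 to BEH2, AT2G45630 to BEH3 and CXXS1 (AT1G11530) to BEH4.

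Upstream of the family, transcripts of the receptor and kinase chain were called higher more often than lower where the bzr1-1D allele was added. Of the 13 genes of that chain, all tested, the allele went with 6 higher and 2 lower without the PIFs, and 8 were higher and 1 lower in bzr1-1D against Col-0. Over all genes tested, 28.1% were higher and 27.8% lower without the PIFs, and 30.8% higher and 26.1% lower with them. The list's medians were 0.16 and 0.17, against −0.01 and 0.02 over all genes. BIN2, the kinase that phosphorylates BZR1 and BES1, averaged 418 CPM in pifq;bzr1-1D, 434 CPM in bzr1-1D, 288 CPM in pifq and 411 CPM in Col-0, so it was lowest in pifq as BZR1 was (pifq against Col-0 −0.51 ± 0.04). BIL2, another GSK3-type kinase, averaged 161, 103, 141 and 174 CPM in the same order of genotypes and was lowest in bzr1-1D (bzr1-1D against Col-0 −0.75 ± 0.04), as BES1 was. BSK1, a substrate of the receptor kinase, rose in pifq;bzr1-1D against pifq (0.56 ± 0.04) as did the phosphatase gene BSL2 (0.28 ± 0.05), and BRL1, a relative of BRI1, fell (−0.98 ± 0.14). BAK1 (0.29 ± 0.04) and the phosphatase gene BSL1 (0.39 ± 0.05) rose in bzr1-1D against Col-0. The phosphatase gene BSU1 rose as well (3.47 ± 0.54), but from 34 and 18 counts in bzr1-1D against 4 and 1 in Col-0.

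Genes for proteins that bind BZR1 or BES1 were called in both directions, in shares that differed between comparisons. Of 22, all tested, 12 were higher and 5 lower when pifq;bzr1-1D was compared with pifq, and 6 were higher and 7 lower in bzr1-1D against Col-0. The shares over all genes were 28.1% higher and 27.8% lower in the first comparison, and 30.8% and 26.1% in the second, near which the second counts of the list lie. In the first of these PIF4 (0.94 ± 0.06), PIF5 (0.89 ± 0.08) and IWS1, an elongation factor that works with BES1 (0.45 ± 0.04), were among those that rose, and the homeobox gene HAT1 fell (−0.83 ± 0.08). The 12 include PIF3, PIF4 and PIF5, which are mutated in both lines of that comparison. Their rise is therefore one of transcripts from mutated genes. In the second, the corepressor gene TPL fell (−0.51 ± 0.04), as did the helix-loop-helix genes BIM3 (−0.92 ± 0.08) and PIF3 (−0.32 ± 0.04), while MYB30 rose (0.52 ± 0.05). TPL was, like BES1 and BIL2, lowest in bzr1-1D, at 265 CPM, against 366 CPM in pifq;bzr1-1D, 346 CPM in pifq and 377 CPM in Col-0. In pifq against Col-0, 14 of the 22 were lower and 4 higher, where 30.5% of all genes were lower and 32% higher. The 14 include PIF1, PIF3 and PIF5 and the 4 include PIF4, the genes mutated in pifq itself.

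Downstream, the known direction of each target list was seen with and without the PIFs. The 6 repressed hormone synthesis genes were all lower in pifq;bzr1-1D against pifq (median −2.94) and in bzr1-1D against Col-0 (median −2.23), where 27.8% and 26.1% of all genes were lower. BR6OX2, an oxidase of the last steps, averaged 4.20 CPM in pifq;bzr1-1D against 285 CPM in pifq, and 30.3 CPM in bzr1-1D against 346 CPM in Col-0. Of 9 induced genes, 7 rose and none fell in the first comparison (median 0.93), where 28.1% of all genes rose. In the second, 9 rose (median 1.16), where 30.8% of all genes did. Some of these calls rest on few counts. PRE1 had 10 and 15 counts in bzr1-1D against 2 and 7 in Col-0. In pifq;bzr1-1D against pifq, PRE5 had 8 and 7 against 3 and 1, and SAUR15 21 and 7 against 6 and 2. IAA19, an auxin response gene, averaged 34.9 CPM in bzr1-1D against 5.39 CPM in Col-0 (2.67 ± 0.09). Without the PIFs it was not called, with 1.34 CPM in pifq;bzr1-1D against 1.19 CPM in pifq (0.28 ± 0.27, adjusted p = 0.379), and its interaction was −2.39 ± 0.30. PRE6, a helix-loop-helix growth regulator, rose in both (0.51 ± 0.11 without and 1.18 ± 0.06 with the PIFs). EXPA8, an expansin gene, averaged 49.6 CPM in pifq;bzr1-1D against 15.6 CPM in pifq. BEE1, a helix-loop-helix gene induced by the hormone, averaged 49.01 CPM in bzr1-1D against 23.6 CPM in Col-0. Without the PIFs BEE1 averaged 19.4 CPM in pifq;bzr1-1D against 17.3 CPM in pifq (0.19 ± 0.08, adjusted p = 0.0465 by edgeR). Its interaction was −0.88 ± 0.10. These lists were drawn up with earlier results of these data known and are no independent evidence of direction.

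Outside the family, BAM7 and BAM8 are beta-amylase-like proteins that carry a DNA-binding domain of the BZR1 type. BAM7 averaged 27.2 CPM in pifq;bzr1-1D, 24.96 CPM in bzr1-1D, 24.98 CPM in pifq and 32.3 CPM in Col-0. It was lower in each single line than in Col-0 (−0.37 ± 0.06 in each). BAM8 averaged 15.9 CPM in pifq;bzr1-1D, 14.6 CPM in bzr1-1D, 16.9 CPM in pifq and 13.0 CPM in Col-0, and rose in pifq (0.38 ± 0.08). For the bzr1-1D allele without the PIFs neither passed the test (BAM7 0.11 ± 0.06, adjusted p = 0.136, and BAM8 −0.11 ± 0.08, adjusted p = 0.265).

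**Figure D4:**
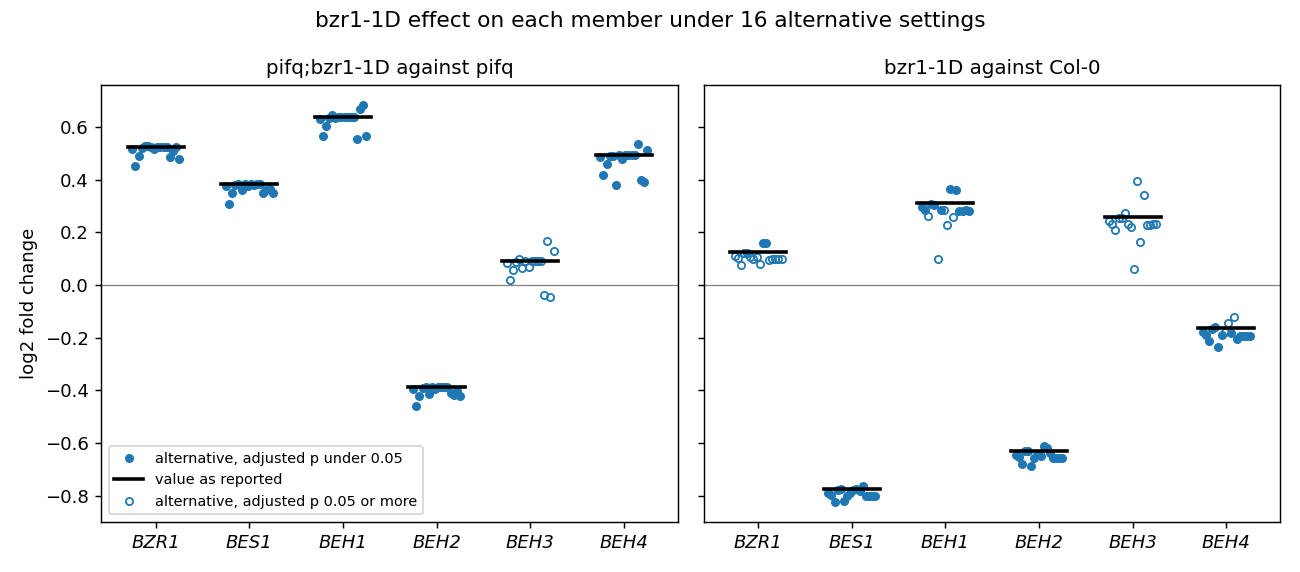
Log2 fold changes of each member for the bzr1-1D allele are drawn without the PIFs (left) and with them (right), with a bar for the reported value and a point for each of 16 alternative settings, filled where the adjusted p was under 0.05. BES1 and BEH2 keep filled points in both panels, and BZR1 has open points in 13 of 16 settings in the right panel only.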

How the data were processed

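The deposited values are whole-number read counts per gene, 1 file per library. TopHat, HTSeq and build TAIR9 appear in the submitters' processing notes. Program versions, strandedness and the handling of multi-hit reads are not stated there, so reads from stretches that family members share may have been split or dropped. Reads in no gene (2.68% to 4.27%) and ambiguous reads (1.95% to 2.08%) were left out. Names, gene order and exon lengths came from TAIR10.1, another build, so no coordinates or sequences are given, and the planned promoter and protein comparison was not made.

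The counts entered edgeR 4.0.16 under R 4.3.3, with filterByExpr, TMM factors and its quasi-likelihood test. The comparisons came from 1 fit over all 8 libraries with a mean per genotype (4 residual degrees of freedom). That test draws each gene's spread towards that of all genes. Its p-values and SE therefore do not rest on the gene's own replicates alone. The fit covered 6 pairwise comparisons and the interaction. P-values were adjusted by Benjamini-Hochberg over all 21221 genes tested, with calls under 0.05. SE is the absolute log2 fold change over the root of F. The script was tested on simulated data. Alternatives were RLE, upper-quartile and no factors, no filter, DESeq2 1.42.0, pairwise fits, a replicate block, thinning and leaving out each library. Named genes are the 6 members, their 2 nearest profiles, the PIF genes, BIN2, BAM7 and BAM8. From each list come genes among the 4 called with the smallest p in a comparison, not all of them for length. PRE1, PRE5 and SAUR15 are named for their low counts. The members, lists and tests were chosen with earlier results of these data known.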

Additional observations from a re-analysis of the deposited data

Results flagged for a closer look

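For 4 members the effect of bzr1-1D without the PIFs differed from that with them by the interaction test of edgeR over all genes (difference on the log2 scale, effect in pifq;bzr1-1D against pifq minus effect in bzr1-1D against Col-0). The difference was 1.16 for BES1, 0.66 for BEH4, 0.40 for BZR1 and 0.24 for BEH2. Each is positive, and 21.9% of all genes tested had a called difference of that sign. In BES1 the difference had opposite directions in the 2 pairs: 115 and 116 CPM in pifq;bzr1-1D against 88.4 and 89.0 CPM in pifq, but 45.1 and 44.4 CPM in bzr1-1D against 76.4 and 76.7 CPM in Col-0.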

How the results depend on the processing

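Over 666 values of a member in a comparison under an alternative, 627 kept their direction and side of the threshold, 32 lost the call and 2 gained one. BES1 and BEH2 kept theirs in all 111 each. The 5 that changed sign had not passed the test: BEH3 in pifq;bzr1-1D against pifq without pifq replicate 1 (−0.04) or pifq;bzr1-1D replicate 1 (−0.046; range −0.046 to 0.17 over libraries left out), BEH3 in the interaction without Col-0 replicate 1 (0.031; range −0.31 to 0.031), and BEH1 in bzr1-1D against pifq with library totals only (0.0063) or without bzr1-1D replicate 2 (0.015; range −0.12 to 0.015). Members called in bzr1-1D against Col-0 numbered 5. They numbered 4 with RLE factors, library totals only, no filter or pairwise fits, 3 with upper-quartile factors or thinning, and 2 with DESeq2. Some fits with a library left out gave fewer than 5 as well, and the cause was not tested. With library totals only, 39.9% of calls in pifq;bzr1-1D against pifq were higher (50.2% with TMM), 39.5% against bzr1-1D (51.7%) and 34.0% against Col-0 (53.9%). The labels do not tie replicate numbers to a shared batch, and deviations of same-numbered libraries correlated at −0.04 to 0.05; with a replicate block 12078 genes and 5 members were called in bzr1-1D against Col-0, against 12064 and 5 without it, and no member call changed. Counting precision was lowest for BEH3 (70 to 144 counts per library) and BEH1 (120 to 284).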
